A study of Mus musculus with 79 samples.

Results

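The measurements described here are those of quadriceps muscle on the high fat diet (HFD) in a panel of inbred mouse strains, and the question is how far the strains differed from one another on that diet. All 37 arrays labelled with the high fat diet were taken, out of the 79 arrays of the series, and they held 35 BXD strains and the parental strains C57BL/6J (B6) and DBA/2J (D2), with 1 array per strain. The BXD strains are inbred lines descended from a cross of B6 and D2, so that at most places in the genome each strain carries the B6 or the D2 allele in both copies. Each array held an even pool of RNA from about 5 male mice of 1 strain, killed at 29 weeks of age after a night without food and perfused before the muscle was taken. The mice had received the high fat diet (Harlan 06414) from 8 weeks of age, and the mice of the comparison group were fed chow (Harlan 2018). Those were 37 of the 42 chow arrays, namely the ones of the same 37 strains. Because animals were pooled before hybridisation, the spread between mice of a strain was not measured, and the difference between strains and the error of a single array cannot be told apart within one diet.

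Affymetrix Mouse Gene 1.0 ST arrays were used, and the deposited value of a probeset is a log-type score, scaled over each array to a mean of 8.0 with an SD of 2.0. The base of the logarithm is not given in the sources used here, so differences are given in score units and not as fold changes. For each of 22335 gene symbols the probeset with the highest mean on the high fat diet was used, and the 11779 genes with a mean score of at least 8 are called bright. Gm996 (8.0001) and Prrx2 (8.0002) lay just inside that limit, and Drd4 (7.9997) and Foxq1 (7.9995) just outside it. The SD of a gene is always its SD over the 37 strains on one diet.

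Quadriceps is a mixed muscle in which most fibres are of the fast kind, built on fast myosins, troponins and regulatory light chains, and a minority are slow and oxidative and use a separate set of contractile genes. The dissected tissue also carries other cells. Adipocytes between and around the fibres store fat and secrete leptin and adiponectin, macrophages take up debris, and blood adds haemoglobin messages where perfusion is incomplete. Fasting raises glucocorticoids, which switch on Fkbp5, Trim63 and other genes of muscle breakdown, while insulin and dietary carbohydrate switch on the genes of fatty acid synthesis. Interferon switches on families of GTPases that defend cells against intracellular pathogens.

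The 37 arrays were similar in their overall profile. Pearson's r of an array with the mean of the other HFD arrays over bright genes ran from 0.975 in BXD79 to 0.993 in BXD66. The tissue label was borne out by the muscle markers, since 12 of 12 listed genes such as Ckm and Acta1 were bright and their mean score lay between 14.05 and 14.35 in every strain. The array labelled BXD63 on the high fat diet stood apart in the 1154 olfactory receptor probesets. Its olfactory values correlated with the HFD minus chow pattern of the other arrays at r = -0.345, against 0.292 to 0.54 in the other 36. BXD79 and BXD69 stood apart over bright genes. BXD79 held the highest or lowest value of 2219 bright genes (18.8%) and BXD69 of 1890 (16%), where an equal share would be 637 (5.41%), and on chow they held 164 and 974. Values without these arrays stand beside many of the results below. The HFD arrays were run in 2 batches of 17 and 20 arrays, and the 37 chow arrays in the same batches as 15 and 22. For 8 strains, BXD62 and BXD69 among them, the arrays of the 2 diets lay in different batches.

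Most bright genes varied little between strains on the high fat diet. The median SD was 0.149 score units, 5% of the genes lay below 0.0932 and 5% above 0.30, and only 119 genes reached an SD of 0.5. An SD of 1 was reached by 12 genes. The least variable gene was Ube2d3, a ubiquitin-conjugating enzyme, whose score stayed between 14.07 and 14.34 with an SD of 0.0527. Tmem38a, a potassium channel of the sarcoplasmic reticulum, Aars, Hsbp1, Tpt1, Sh3glb1, Sdccag3, Hdlbp, Dnm2 and Atp5j followed, the last with an SD of 0.0636. The muscle marker list as a whole had a median SD of 0.0909 and the fast fibre list 0.107. The lists with the largest median SD were the red blood cell list (0.662 over 4 bright genes), the slow fibre list (0.629 over 12) and the adipocyte list (0.435 over 13). The muscle and fast fibre genes lay near the top of the score scale (Ckm had a mean of 15.09), and the part of that position in their small SDs was not tested.

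Of the 25 most variable bright genes, 12 fell into 2 separate sets of strains by a fit of 2 normal distributions. Mcpt2, a mast cell protease, lay between 5.38 and 6.40 in 10 strains, B6 among them at 6.28, and between 7.74 and 9.64 in the other 27, including D2 at 8.73. H2-Ea-ps, listed under a symbol for the E alpha chain of MHC class II that B6 mice are known not to express, lay between 6.28 and 6.93 in 23 strains with B6 at 6.65, and between 9.51 and 11.29 in the 14 others with D2 at 9.51. No strain fell into the gap of 2.58 score units between these sets. Pttg1, securin, which holds sister chromatids together until anaphase, split into 18 strains between 7.0 and 8.53 and 19 between 9.35 and 10.87, with D2 in the lower set at 7.34 and B6 in the upper at 9.95.

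In 11 of the 12 split genes B6 and D2 lay in different sets, B6 in the upper set in 7 and D2 in 4. EG665955 was the exception, with both parents among its 30 upper strains. The chow arrays, which played no part in choosing these genes, ranked the same strains lowest: in 9 of the 12 all strains of the lower HFD set were also the lowest on chow, and in the other 3 all but 1 were. By the same fit 9 of the 12 formed 2 sets on chow as well, and Tmem45b, Lrrn1 and LTR_Affy_10394776 did not. Tmem45b, a membrane protein, was also one of the 3 with a strain that changed place. It lay between 6.88 and 7.93 in 25 strains, D2 among them at 7.93, and between 8.69 and 11.10 in the 12 others, B6 at 10.54 and BXD62 highest, and 24 of the 25 low strains were also among the 25 lowest on chow. For genes that fell into separate sets no pooled correlation between diets is given gene by gene.

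Mela, which derives from an endogenous retrovirus, had the largest SD (1.97) and was not among the 12 by that fit. It nonetheless had an empty gap of 1.75 score units, wider than the 1.73 of Fbxw11. It lay between 5.84 and 7.71 in 14 strains, BXD97 lowest and B6 among them at 7.11, and between 9.46 and 13.09 in 23, BXD80 highest and D2 at 10.82. The same 14 strains were low on chow, where the gap was 1.94. Mela is therefore treated as a split gene, a choice made after its values were seen.

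A split score belongs to a probeset, and not always to the whole gene. Fbxw11, part of a ubiquitin ligase, lay between 7.69 and 8.95 in 15 strains and between 10.68 and 12.11 in 22, with an SD of 1.56. Of its other probesets 1 split in the same way (SD 1.54) and 1 did not split (SD 0.146). Gpr75, an orphan receptor, mirrored Fbxw11, being low in 22 strains and high in 15, with r = -0.949 between the genes over the 37 strains (chow -0.969). LOC433762 and Gm3579 held identical values on every array. Their signal cannot be assigned to 1 of them.

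**Figure D1:**
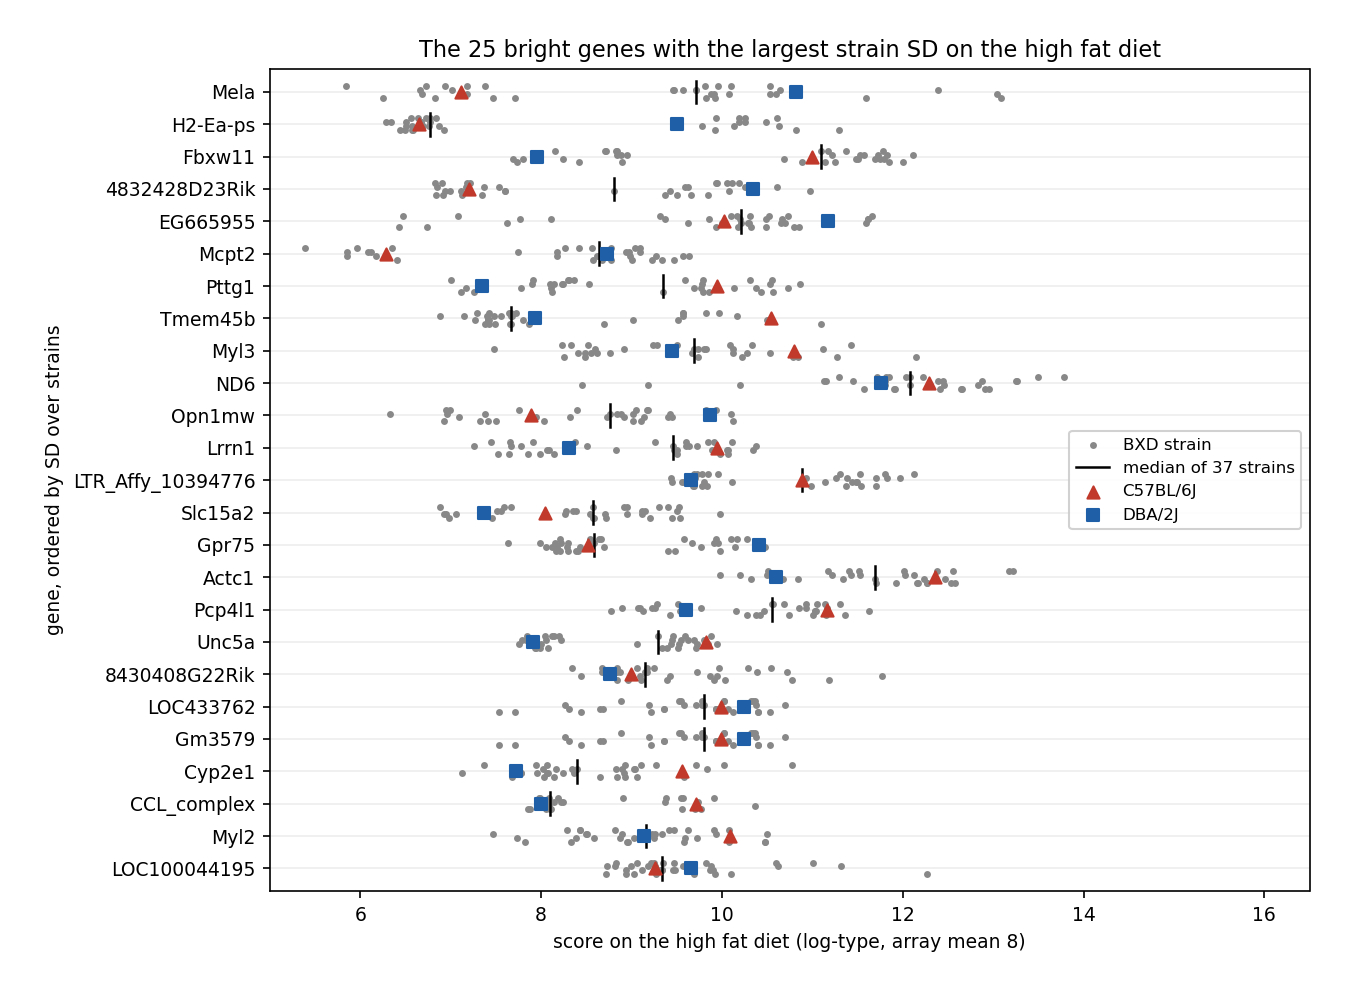
Score on the high fat diet (x axis, log-type units with an array mean of 8) of the 25 bright genes with the largest SD, ordered from top to bottom. Grey points are BXD strains, the red triangle is C57BL/6J, the blue square is DBA/2J and the black bar is the median of the 37 strains. Mela, H2-Ea-ps and Mcpt2 show an empty gap between their sets of strains. Actc1 and Myl3 spread without a wide gap that has at least 5 strains on each side.

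Among the unsplit genes of the 25, no gap with at least 5 strains on each side exceeded 0.501 on the high fat diet. The widest was that of LOC100044195, although the 0.438 of Lrrn1, counted as split by the fit, was narrower. Actc1, the actin of heart and developing muscle, ran from 9.97 in BXD83 through a median of 11.69 to 13.22 in BXD68, with B6 at 12.35 and D2 at 10.60. Both parents lay inside the range of their descendants. Myl3 and Myl2, light chains of the slow and cardiac myosin, ran from 7.48 to 12.15 and from 7.47 to 10.49, both lowest in BXD56. Cyp2e1, a cytochrome P450 known best from liver, ran from 7.13 in BXD70 through 8.40 to 10.78 in BXD63, and ND6, a mitochondrially encoded subunit of complex I, from 8.45 in BXD84 to 13.78 in BXD63. The other ND6 probeset had an SD of 0.392 and correlated with this one at 0.19, so the wide range is that of 1 probeset.

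Whether a strain kept its place was tested against the chow array of the same strain, with Pearson's r over 37 strains and Benjamini-Hochberg adjustment over all 35556 probesets. Over all probesets 3707 (10.4%) passed at an adjusted p of 0.05. Among bright genes 2344 passed (19.9%), with a median r of 0.259. Among the 25 most variable genes 20 passed, but in the split genes a pooled r mostly repeats which set a strain belongs to. Of the 11 genes of the 25 with no separate sets on either diet, Mela left out, 6 passed and 5 did not, and LOC433762 and Gm3579, whose values are identical, are both among the 6. Actc1 gave r = 0.86 (rho 0.84, permutation p = 1e-05 for each, which is the smallest value 100000 draws can give, adjusted p = 2.54e-09) and Slc15a2, a peptide transporter, r = 0.90 (rho 0.86, permutation p = 1e-05 for each, adjusted p = 2.39e-11). Their values without the 2 farthest strains were 0.83 and 0.89, and within batches no value for either gene was below 0.81.

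The slow fibre light chains did not pass. Myl3 gave r = 0.27 (adjusted p = 0.335, permutation p = 0.101) and Myl2 r = 0.10 (adjusted p = 0.789, permutation p = 0.535), with SDs of 1.08 and 0.77 on the high fat diet beside 0.86 for Actc1. Cyp2e1 (r = 0.11, adjusted p = 0.788, permutation p = 0.534), ND6 (r = 0.38, adjusted p = 0.127, permutation p = 0.0213) and 8430408G22Rik (r = 0.36, adjusted p = 0.150, permutation p = 0.0266) did not pass either. In batches 1 and 2 taken alone, r was 0.79 and 0.15 for ND6 and 0.75 and 0.07 for 8430408G22Rik. It was 0.25 and 0.53 for Myl3, -0.14 and 0.32 for Myl2, and 0.22 and -0.15 for Cyp2e1. Among the 12 bright genes of the slow fibre list 1 passed, Tpm3, a slow tropomyosin gene, with r = 0.64 (adjusted p = 0.000590). That is 8.33% of the list, beside 19.9% of bright genes.

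The strain SD on the high fat diet was next compared with the SD of the same 37 strains on chow. Over bright genes the SD was slightly larger on the high fat diet, with a median of 0.149 against 0.135 and a median log2 ratio of the SDs of 0.12. It was larger in 8095 genes and smaller in 3684. Single genes were tested with the Pitman-Morgan test for variances of paired values, two-sided, with Benjamini-Hochberg adjustment over all probesets. The test called 12 probesets larger on the high fat diet (0.0337%) and 9 smaller (0.0253%), and among bright genes it called 4 larger and 5 smaller. At an unadjusted p of 0.05 the counts among bright genes were 1041 and 186. Without BXD79 and BXD69 the SD was larger in 7077 genes and smaller in 4702, the median log2 ratio was 0.06 and the unadjusted counts were 563 and 263. The Pitman-Morgan test assumes normal values and reacts to single extreme strains, so a permutation test that exchanged the diets within strains (100000 draws, two-sided) is given beside it for each gene called.

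**Figure D2:**
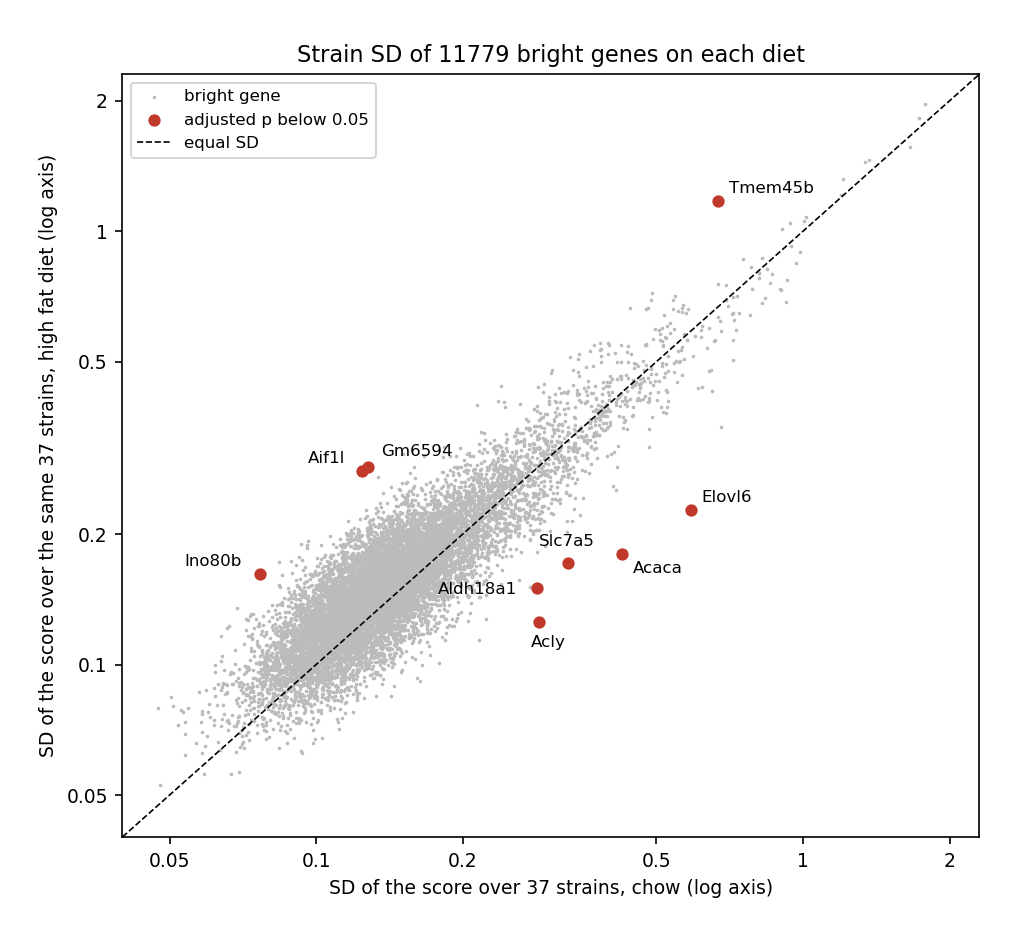
SD of the score over the same 37 strains on chow (x axis) and on the high fat diet (y axis), both on log axes, for the 11779 bright genes. Red points are the 9 genes with an adjusted p below 0.05, the dashed line marks equal SDs, and the cloud lies slightly above it. Elovl6, Acaca, Acly, Slc7a5 and Aldh18a1 lie below the line and Tmem45b, Ino80b, Gm6594 and Aif1l above it.

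The genes called smaller on the high fat diet included 3 enzymes of fatty acid synthesis. Elovl6, which lengthens newly made fatty acids, had an SD of 0.227 on the high fat diet and 0.589 on chow (log2 ratio -1.37, adjusted p = 0.00156, permutation p = 0.174). Acaca, acetyl-CoA carboxylase, which makes malonyl-CoA, had SDs of 0.180 and 0.425 (log2 ratio -1.24, adjusted p = 0.00991, permutation p = 0.0988), and a further Acaca probeset gave -1.18 (adjusted p = 0.0102, permutation p = 0.0101). Acly, ATP citrate lyase, which makes cytosolic acetyl-CoA, had SDs of 0.126 and 0.287 (log2 ratio -1.19, adjusted p = 0.0100, permutation p = 0.0756). The permutation test passed 0.05 for that further probeset alone.

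These ratios rested on a single strain. On chow, BXD56 stood at 11.22 for Elovl6, 11.04 for Acaca and 10.22 for Acly, and the next strain, BXD97, at 9.70, 9.38 and 9.25. On the high fat diet BXD56 lay within the other strains at 7.99, 8.75 and 8.95. Without BXD56 the log2 ratios were -0.54, -0.26 and -0.31, and none was called. Fasn and Slc25a1, fatty acid synthase and the mitochondrial citrate carrier, were looked up after these values were seen. BXD56 was the highest chow strain for both, and their log2 ratios were -0.94 (adjusted p = 0.122) and -0.40 (adjusted p = 0.569). Without BXD56 these were -0.38 for Fasn and 0.32 for Slc25a1, the latter with its sign turned. Over these 5 genes the median pairwise r between genes was 0.488 on the high fat diet and 0.871 on chow, or 0.481 and 0.609 without BXD56.

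Slc7a5 and Aldh18a1 were the other genes called smaller. Slc7a5, the large neutral amino acid transporter, ran from 8.24 in BXD61 through a median of 8.59 to 8.99 in BXD56 on the high fat diet and from 8.40 to 9.67 on chow, with SDs of 0.172 and 0.329 (log2 ratio -0.94, adjusted p = 0.0399, permutation p = 0.00064). Aldh18a1, which starts proline synthesis, ran from 7.69 in BXD55 to 8.41 in BXD70 on the high fat diet and from 7.73 to 9.12 on chow, with SDs of 0.150 and 0.285 (log2 ratio -0.92, adjusted p = 0.0234, permutation p = 0.00123). BXD62 was highest on chow for both. Without BXD62 the ratios were -0.86 and -0.69 and neither was called, and Aldh18a1 also lost its call without BXD99. Slc7a5 lost its call when any 1 of 15 strains was left out. Its ratio stayed between -1.04 and -0.86 with any 1 of the 37 strains left out.

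Mthfd2, a mitochondrial folate enzyme of one-carbon metabolism, had a mean of 7.78 and so fell just short of the brightness limit. It had the smallest adjusted p of all probesets tested. On the high fat diet it ran from 7.53 to 8.31 (SD 0.171), and on chow from 7.60 to 10.21 in BXD62 (SD 0.658), a log2 ratio of -1.95 (Pitman-Morgan adjusted p = 8.78e-12, permutation p = 1e-05) and -1.76 without BXD62. Asns, asparagine synthetase, was looked up after these values were seen, and its log2 ratio was -0.54 (adjusted p = 0.40). Mthfd2, Slc7a5, Aldh18a1 and Asns shared BXD62 as the highest chow strain, and their median pairwise r was 0.305 on the high fat diet and 0.741 on chow (0.269 and 0.662 without BXD62).

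Tmem45b had the most stable larger SD. Its SD was 1.17 on the high fat diet and 0.670 on chow (log2 ratio 0.81, adjusted p = 0.00156, permutation p = 3e-05), and with any 1 strain left out the ratio lay between 0.75 and 0.91 and was called each time. The upper 12 strains reached 11.10 on the high fat diet, while the highest value on chow was 9.46, and the lowest values of the diets were 6.88 on both. The larger SD thus lay in the upper strains.

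The other genes called larger had smaller SDs than Tmem45b on both diets. Ino80b, a subunit of a chromatin remodeller, had SDs of 0.161 and 0.0765 (log2 ratio 1.08, adjusted p = 0.0412, permutation p = 0.00303) and lost its call without any 1 of 19 strains. Gm6594 had SDs of 0.286 and 0.128 (log2 ratio 1.16, adjusted p = 0.0170, permutation p = 0.00026) and lost its call without BXD69 (ratio 0.95) or BXD79. Aif1l, an actin-binding protein, had SDs of 0.280 and 0.124 (log2 ratio 1.17, adjusted p = 0.0105, permutation p = 0.109), and BXD79 stood at 9.88 against a median of 8.51. Without BXD79 its ratio was 0.39. Leaving out BXD79 together with BXD69, a choice made after seeing the data, left 5 of the 9 calls among bright genes. Ino80b, Gm6594, Aif1l and Aldh18a1 were the ones lost.

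**Figure D3:**
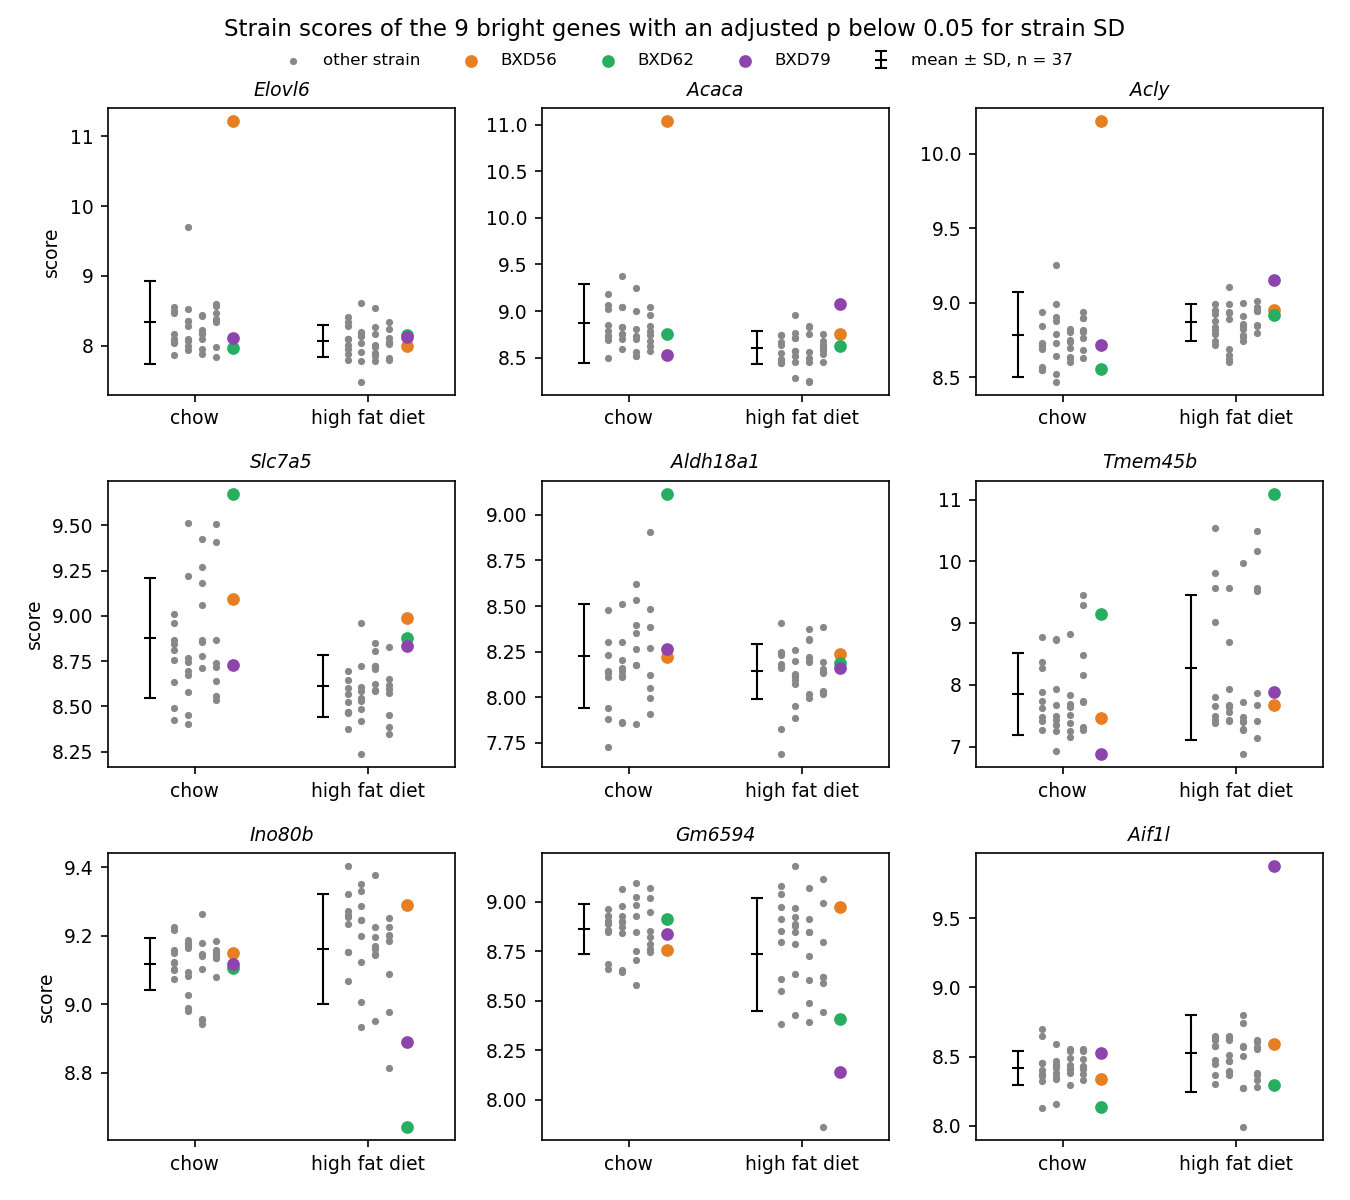
Scores of the 9 bright genes with a called difference in SD, on chow and on the high fat diet (y axis, score, with its own range in each panel). Each point is 1 of the 37 strains, with BXD56 in orange, BXD62 in green and BXD79 in purple, and the bar is the mean ± SD over strains. The chow point of BXD56 lies far above the other strains for Elovl6, Acaca and Acly, and the HFD point of BXD79 (9.88) far above the others for Aif1l, while the upper strains of Tmem45b are spread up to 11.10 on the high fat diet.

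Ucp1, the uncoupling protein of brown and beige adipocytes, was also called larger but was dim, with a mean of 6.72. Its median on the high fat diet was 6.48 and DBA/2J stood alone at 9.94 (SD 0.802 against 0.376 on chow, log2 ratio 1.09, adjusted p = 0.0371, permutation p = 0.220). Without DBA/2J the ratio was 0.65. Of the 21 probesets called, 9 represented bright genes, 7 were other named probesets and 5 had no gene name.

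Across the 23 gene lists, which held 263 bright memberships, the lipogenesis list was the only one with a called member, 3 smaller out of 14 (Elovl6, Acaca and Acly), beside 5 of 11779 bright genes. None of the 3 was called without BXD56. The median log2 SD ratio was above 0 in 14 lists and below 0 in 9, against 0.12 over all bright genes. The red blood cell list had the highest median ratio among lists with at least 4 bright genes, at 0.47. Of its 4 bright genes, 3 were globin genes with a larger SD, and Slc4a1 had a smaller one (log2 ratio -0.27). Hba-a1, the alpha globin chain, ran from 9.83 in BXD84 through 12.07 to 13.22 in BXD71 on the high fat diet, and the Pitman-Morgan adjusted p of its log2 ratio of 0.47 was 0.454. Hbb-b1, the beta chain, ran from 10.24 in BXD84 to 13.44 in BXD45 and correlated with Hba-a1 at r = 0.932 over strains (chow 0.93). BXD84 was lowest for both chains on the high fat diet. Without it the log2 ratios of Hba-a1 and Hbb-b1 were 0.21 and 0.34 in place of 0.47 and 0.60. The median of the list was then 0.22 and no longer the highest, with the Schwann cell list at 0.27. The slow fibre list had a median ratio of -0.26, with 9 of 12 genes smaller, and the fatty acid oxidation list -0.24, with 16 of 24 smaller, and neither list had a called gene.

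Genes that varied together were then sought among the 200 most variable bright genes on the high fat diet. The median pairwise r of these genes was 0.0283, and average linkage at r of 0.6 gave 7 groups of at least 5 genes, which held 68 of the 200. Each group is named by 1 of its leading genes. Because the groups were built from the HFD correlations, these are given as a description, and the chow arrays of the same strains, which the grouping did not use, are given beside them. The genes were also chosen for a large SD on the high fat diet, so their SDs set against chow are a description too: of the 200 genes the SD was larger on the high fat diet in 113 and smaller in 87 (median log2 ratio 0.08), and 117 (58.5%) passed the test of r between diets. The 200 include split genes, in which a pooled r mostly repeats which set a strain belongs to. The level of a group in a strain is the mean of its genes' scores after each gene's mean was taken off.

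The Adipoq group was the largest, with 24 genes. It held Adipoq and Lep, the hormones adiponectin and leptin, Retn, which encodes resistin, Cidec and Plin1, which coat the lipid droplet, Cfd (adipsin), Scd1, which desaturates fatty acids, Pck1, Aoc3 and Sncg, and also the acute phase genes Hp, Orm1, Serpina3n and Serpina3c. It took in 7 of the 13 bright genes of the adipocyte list (53.8% of the list and 29.2% of the group). The other 6 all correlated positively with the level of the group, with a median r of 0.371 (0.0915 to 0.755, chow median 0.461). Lep ran from 8.10 in BXD49 through 10.01 to 11.33 in BXD65. Adipoq ran from 8.97 in BXD71 through 10.29 to 11.71 in BXD79, and Cidec from 8.88 in BXD49 through 10.51 to 11.88 in BXD79. The level of the group was lowest in BXD49 (-0.93) and BXD71 (-0.78) and highest in BXD79 (1.09) and BXD51 (0.77). In bulk muscle, fewer cells of a type and less RNA per cell cannot be told apart.

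The median pairwise r of the Adipoq group was 0.794 on the high fat diet (0.779 and 0.817 in batches 1 and 2) and 0.583 on chow. It was 0.782 without BXD79 and BXD69. The SD was larger on the high fat diet in 21 of its 24 genes, with a median log2 ratio of 0.35 (0.08 over the 200 genes), and no single gene was called. Without BXD79 and BXD69 it was larger in 20 of the 24, with a median of 0.25 beside 0.06 over the 200 genes. Lep was one of the 3 with a smaller SD, 0.733 against 0.90. Lep and Adipoq correlated at 0.842 on the high fat diet and 0.555 on chow. Between the diets 6 of the 24 genes (25%) passed the test of r, beside 58.5% of the 200 genes and 19.9% of all bright genes, among them Hp (r = 0.47), Serpina3n (0.52) and Fah (0.66), while Adipoq (0.36) and Lep (0.41) did not pass.

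Outside the 200 genes, the nearest to the level of the Adipoq group were Gnai1 (r = 0.945, a G protein subunit), Slc1a5 (0.94, a glutamine transporter) and Slc25a1 (0.935). G6pdx, which supplies NADPH for fatty acid synthesis, was also near (0.913). The 12 muscle marker genes had a median r of -0.318 with the group, all 12 negative (-0.235 and 11 of 12 without BXD79 and BXD69), and the 15 bright macrophage genes a median of 0.56, all positive (0.532 without these arrays, and 0.457 on chow). The part of cell content in these relations was not tested.

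The Mmp12 group held Mest, an imprinted gene that is switched on in expanding fat, the macrophage elastase Mmp12, Ear2, Lgals3 (galectin-3) and Anxa1. Mest ran from 8.41 in BXD83 through 9.17 to 11.47 in BXD51, and Mmp12 from 7.16 in BXD98 through 7.94 to 9.22 in BXD51. The group was highest in BXD51 (1.23) and BXD79 (1.05). All 5 genes had a larger SD on the high fat diet (113 of the 200 genes did), with a median log2 ratio of 0.51 and a highest single value of 0.87 in Lgals3 (Pitman-Morgan adjusted p = 0.140). Without BXD79 and BXD69 all 5 were still larger, with a median of 0.41. The median pairwise r was 0.732 on the high fat diet (0.701 and 0.782 within batches, 0.705 without BXD79 and BXD69) and 0.496 on chow. The 15 macrophage genes had a median r of 0.635 with this group, all positive (0.578 without these arrays), the 13 adipocyte genes 0.588 and the 16 matrix genes 0.465. Its nearest neighbours were Igsf6 (0.888), Postn (0.872), Lcp1 (0.867) and Mpeg1 (0.864), of which Postn is a matrix gene and the others are genes of myeloid cells. Of the 21 pairs of groups, Adipoq and Mmp12 were the most alike on the high fat diet, with r = 0.731 (rho 0.71, 0.676 without the 2 strains farthest on the Adipoq level, 0.708 without BXD79 and BXD69). Their r on chow was 0.612, below the 0.879 of the Myh7 and Ankrd2 groups described next.

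**Figure D4:**
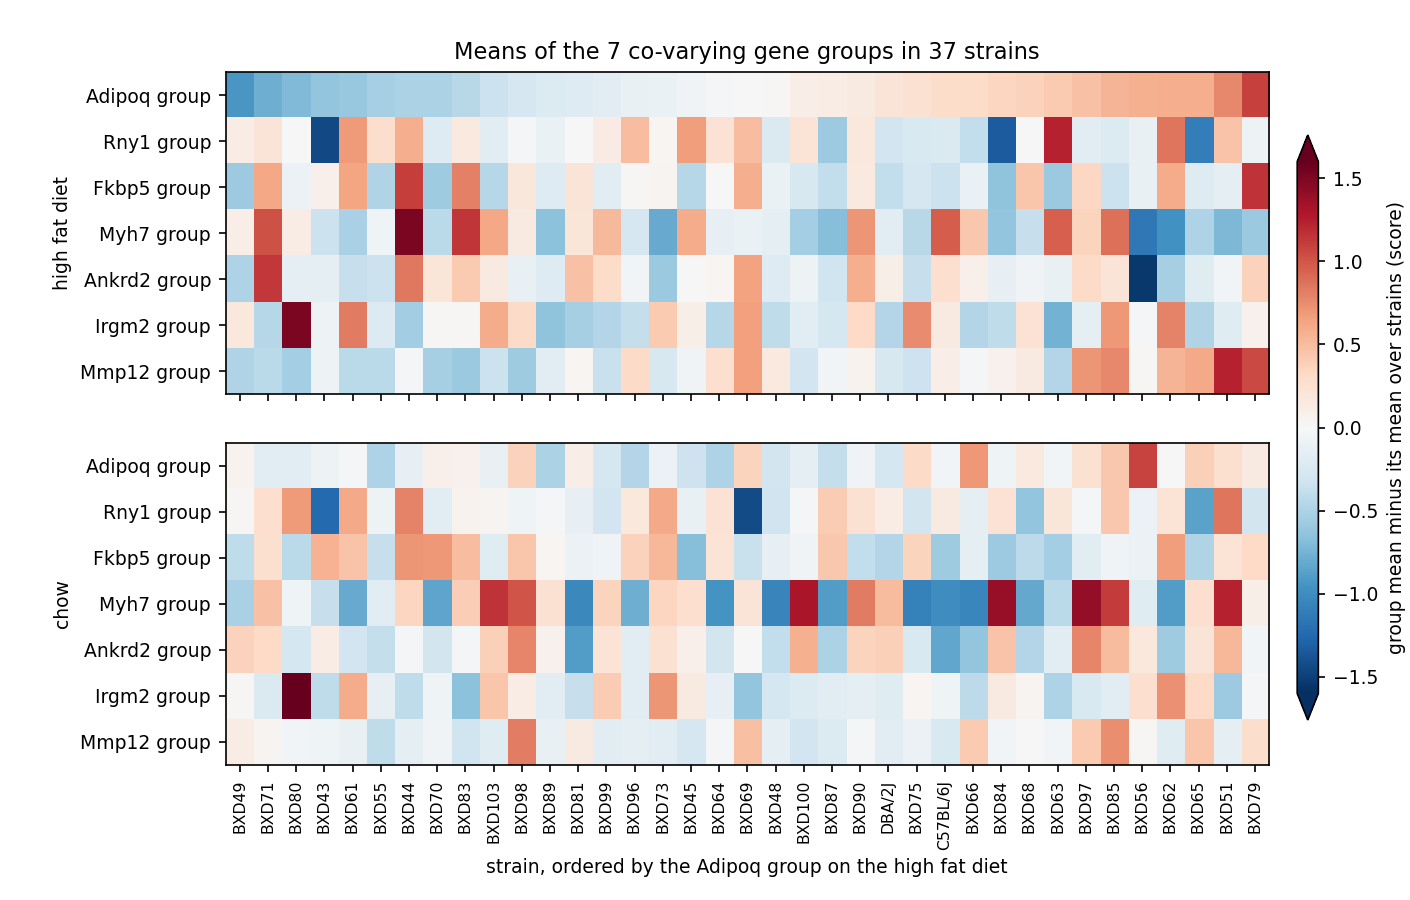
Level of each of the 7 groups (rows) in each of the 37 strains (columns, ordered by the Adipoq group) on the high fat diet above and on chow below, as the mean score of the group's genes after the gene means were taken off; red is high, blue is low, and the chow value of BXD80 in the Irgm2 group (2.42) lies beyond the colour scale. On the high fat diet BXD79 and BXD51 are high in both the Adipoq and the Mmp12 group, BXD44 in both the Fkbp5 and the Myh7 group, and BXD56 is lowest in both the Myh7 and the Ankrd2 group.

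The Myh7 group was made up of 7 genes of the slow fibre list: Myh7, the slow myosin heavy chain, the light chains Myl2 and Myl3, the troponins Tnnc1, Tnni1 and Tnnt1, and Atp2a2, the calcium pump of slow and cardiac muscle. All of its genes were in that list, whose 12 bright genes include 5 others. Myh7 ran from 7.95 in BXD79 through 9.06 to 10.92 in BXD44, Tnnc1 from 8.22 in BXD62 to 10.87 in BXD44, and Atp2a2 from 10.34 in BXD56 to 12.48 in BXD44. The group was highest in BXD44 (1.5) and BXD83 (1.14) and lowest in BXD56 (-1.15) and BXD62 (-0.97), with B6 at 0.97 and D2 at -0.17. On chow the parents lay the other way round, with B6 at -0.999 and D2 at 0.507. The genes were tightly coupled on both diets, with a median pairwise r of 0.886 on the high fat diet (0.922 and 0.845 within batches) and 0.936 on chow. None of the 7 passed the test of r between diets, with a median r of 0.231, beside 58.5% of the 200 genes (median 0.54) and 19.9% of bright genes (median 0.259). The SD was smaller on the high fat diet in 6 of the 7, with a median log2 ratio of -0.29 and no call.

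The Ankrd2 group held Csrp3 and Ankrd2, which sense stretch at the sarcomere, with Myoz2, Lmod2, Pdlim1 and Bdh1, the last an enzyme of ketone body use. Ankrd2 ran from 9.68 in BXD56 through 11.55 to 13.22 in BXD71, and Csrp3 from 8.14 in BXD56 through 9.89 to 11.71 in BXD71. These strains were the extremes of the group (-1.55 and 1.13), and its median pairwise r of 0.693 was 0.563 without both. On chow it was 0.572, and 0 of the 6 genes passed the test of r between diets (58.5% of the 200 genes and 19.9% of bright genes did), Csrp3 with r = -0.02 and Ankrd2 with r = -0.03. The level of the Ankrd2 group followed that of the Myh7 group at r = 0.683 (rho 0.664, 0.631 without the 2 farthest strains) and at 0.879 on chow. All 24 bright genes of fatty acid oxidation correlated positively with the Ankrd2 group (median r 0.582, chow 0.635), and 12 of 13 fast fibre genes negatively (median -0.434, -0.35 without BXD79 and BXD69, chow -0.499). Fabp3, the fatty acid binding protein of oxidative muscle, and Ldhb, the lactate dehydrogenase of the same fibres, correlated with it at 0.787 and 0.829.

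The Fkbp5 group held 10 genes: Fkbp5, a co-chaperone of the glucocorticoid receptor, Trim63, the ubiquitin ligase MuRF1, Ddit4, Cdkn1a, Cebpd, Arrdc2, Arrdc3, Tmem140, Cyr61 and 8430408G22Rik. It took in 4 of the 18 genes of the fasting and glucocorticoid list (22.2%). Fkbp5 ran from 8.41 in BXD49 through 9.21 to 10.54 in BXD79, Trim63 from 11.46 in BXD63 through 12.03 to 13.28 in BXD79, and Ddit4 from 8.20 in BXD49 through 8.90 to 10.84 in BXD44. The group was highest in BXD79 (1.15) and BXD44 (1.10) and lowest in BXD84 (-0.64). Its median pairwise r was 0.766 (0.77 and 0.767 within batches, 0.744 without BXD79 and BXD69) and 0.684 on chow. The other 14 genes of the list all correlated positively with it (median 0.697, 0.635 without BXD79 and BXD69, chow 0.656), and Foxo1, which drives Trim63, did so at 0.908. All 13 fast fibre genes correlated negatively with the group (median -0.414, chow -0.0123), as did 10 of the 12 muscle genes (median -0.302, chow -0.00878). BXD79, highest in the group, was lowest in the fast fibre list, and without BXD79 and BXD69 the medians were -0.25 for fast fibre genes, with all 13 negative, and -0.109 for muscle genes, with 9 of 12 negative. Of the 10 genes 2 (20%) passed the test of r between the diets, beside 58.5% of the 200 genes and 19.9% of bright genes, Cyr61 (r = 0.68, adjusted p = 0.000160) and Cebpd (r = 0.49, adjusted p = 0.0238). All mice were fasted overnight, and the length of the fast in each strain is not given in the sources used here.

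Of the 24 genes of the fatty acid oxidation list, 23 correlated positively with the Fkbp5 group on the high fat diet (median 0.342) and 5 on chow (median -0.237). Without BXD79 and BXD69 the counts were again 23 and 5, and the medians 0.295 and -0.25. The difference between the diets was not tested.

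**Figure D5:**
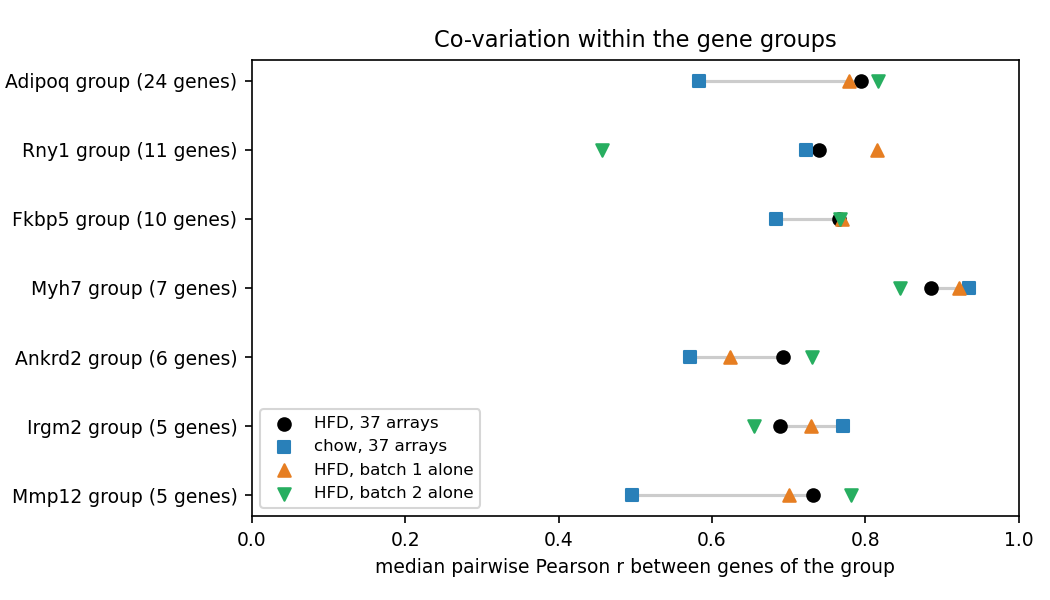
Median Pearson r over all pairs of genes within each group (x axis) on the high fat diet, on chow and within each batch of the high fat diet. Black circles are the 37 HFD arrays, blue squares the 37 chow arrays, orange and green triangles the HFD arrays of batch 1 and batch 2. The chow value is lowest for the Mmp12 and Ankrd2 groups (0.496 and 0.572), and the Rny1 group differs most between batches (0.816 and 0.457).

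The Irgm2 group held the GTPases Irgm2, Iigp1, Tgtp1, Gbp4 and Gbp6, all of which interferon gamma is known to switch on. Iigp1 ran from 7.38 in BXD89 through 8.35 to 10.86 in BXD80, Irgm2 from 7.76 in BXD44 through 8.56 to 10.51 in BXD80, and Gbp6 from 8.84 in BXD63 through 9.75 to 11.02 in BXD80. BXD80 was highest as a group level on both diets (1.51 and, on chow, 2.42). The median pairwise r was 0.689 on the high fat diet (0.729 and 0.655 within batches, 0.644 without the 2 extreme strains) and 0.771 on chow. In 4 of the 5 genes r between the diets passed, beside 58.5% of the 200 genes and 19.9% of bright genes, the largest r being 0.77 in Irgm2 (adjusted p = 2.56e-06), and Tgtp1 (r = 0.44, adjusted p = 0.0534) did not pass. Without BXD79 and BXD69 all 5 passed, Tgtp1 with r = 0.54 (adjusted p = 0.0124). Without BXD80 the test passed for Irgm2 (r = 0.63, adjusted p = 0.00111) and Gbp6 (r = 0.48, adjusted p = 0.0341) and no longer for Iigp1 (0.32) and Gbp4 (0.43). Without BXD63, Gbp4 did not pass either (r = 0.40, adjusted p = 0.105). All 13 bright genes of the interferon list correlated positively with the group (median 0.543, chow 0.445), and Cd274, which encodes PD-L1, and Tap1, a peptide transporter of antigen presentation, did so at 0.957 and 0.9.

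Promoter windows of 300 bases (250 before and 50 after the start of the gene, RefSeq, GRCm38.p6) were read for genes of the Irgm2 and Fkbp5 groups, to show the letters that interferon and glucocorticoid response elements are known by. The letters GAAANNGAAA, searched on both strands, were found in 1131 of all 32851 windows (3.44%). Of the 5 genes of the Irgm2 group 2 had a window in the table, and both held the letters, as did 7 of the 10 interferon list genes with a window, Gbp2 (r = 0.882 with the group) among them. The letters GNACANNNTGTNC, also on both strands, were found in 156 windows (0.475%), and in 1 of the 7 windows of Fkbp5 group genes, that of Trim63. The windows are shown 5′ to 3′ on the strand of the gene with the match in capitals, for Irgm2 at chr11:58214727-58215026 (plus strand), Tgtp1 at chr11:48992197-48992496 (minus strand), Gbp2 at chr3:142620413-142620712 (plus strand) and Trim63 at chr4:134314870-134315169 (plus strand).
Irgm2: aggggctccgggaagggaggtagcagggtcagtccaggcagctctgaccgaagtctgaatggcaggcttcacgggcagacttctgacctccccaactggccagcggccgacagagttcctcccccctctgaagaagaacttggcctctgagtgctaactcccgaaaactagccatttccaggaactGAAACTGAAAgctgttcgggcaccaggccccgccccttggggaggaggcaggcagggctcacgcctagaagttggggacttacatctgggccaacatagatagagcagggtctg
Tgtp1: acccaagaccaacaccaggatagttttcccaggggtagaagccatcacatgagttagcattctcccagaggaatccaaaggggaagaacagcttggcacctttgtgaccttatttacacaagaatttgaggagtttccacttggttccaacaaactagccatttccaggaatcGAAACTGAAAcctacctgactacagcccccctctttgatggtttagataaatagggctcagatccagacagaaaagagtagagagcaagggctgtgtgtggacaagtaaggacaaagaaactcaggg
Gbp2: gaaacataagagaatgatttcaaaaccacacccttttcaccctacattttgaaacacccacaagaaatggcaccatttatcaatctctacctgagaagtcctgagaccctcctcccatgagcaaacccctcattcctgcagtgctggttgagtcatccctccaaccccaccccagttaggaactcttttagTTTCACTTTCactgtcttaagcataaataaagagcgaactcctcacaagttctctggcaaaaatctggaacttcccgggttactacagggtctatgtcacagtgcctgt
Trim63: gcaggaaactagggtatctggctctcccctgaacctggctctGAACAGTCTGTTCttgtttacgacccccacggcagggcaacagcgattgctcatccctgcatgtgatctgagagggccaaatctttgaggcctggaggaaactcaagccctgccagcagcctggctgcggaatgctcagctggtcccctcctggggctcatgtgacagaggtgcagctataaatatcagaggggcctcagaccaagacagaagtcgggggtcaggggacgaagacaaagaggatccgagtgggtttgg
Counted from the start of the gene, the match began at -64 in Irgm2, -77 in Tgtp1, -59 in Gbp2 and -208 in Trim63. A match is a description of the letters and not a measured binding site.

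The Rny1 group held small non-coding RNAs: the Y RNAs Rny1 and Rny3, the spliceosomal RNA Rnu2, Vaultrc5 of the vault particle and the small nucleolar RNAs Snora3, Snora22, Snora34, Snora44 and Snord32a, with ND6 and Slfn3. Rny1 ran from 7.42 in BXD65 through 8.75 to 10.54 in BXD63, and Rnu2 from 9.74 in BXD43 through 11.83 to 13.19 in BXD63. BXD63 was highest in 8 of the 11 genes, and its level of 1.22 was the highest of the group, with BXD43 (-1.45) and BXD84 (-1.34) lowest. The median pairwise r was 0.74 on the high fat diet, 0.714 without BXD63 and 0.723 on chow, but 0.816 in batch 1 and 0.457 in batch 2. The 4 bright red blood cell genes had a median r of 0.514 with the group, 3 positive and 1 negative (chow 0.307, and 0.373 without BXD84, which was lowest in that list). The 16 matrix genes had a median of -0.364 with 14 negative (-0.36 without BXD63, chow -0.122), and the 12 muscle genes -0.181 with all negative (-0.122 and 10 negative without BXD63, chow -0.148).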

How the data were processed

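The 79 arrays of the series hold quadriceps RNA of BXD, C57BL/6J and DBA/2J males, and the 37 arrays labelled high fat diet were described here, with the 37 chow arrays of the same strains. The authors hybridised RNA pools to Affymetrix Mouse Gene 1.0 ST arrays, and the submitters' processing notes name Affymetrix Expression Console, with no version. The deposited values are a log-type score with a mean of 8.0 and an SD of 2.0 on each array. The log base, the summarization of probes and any batch correction are not given in the sources used here. Arrays carry no read depth, and their number, 1 per strain and diet, limits the precision.

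Probesets with a gene symbol (26221 of 35556) were reduced to 1 per symbol, the one with the highest mean on the high fat diet, and a mean of at least 8 defined bright genes. Genes are named where they are among the 25 most variable or 10 least variable bright genes, pass the SD test, belong to a list, or are among the up to 8 members of a group with the highest mean r. Other genes named (further group members, neighbours of groups, dim genes called) were chosen after their values were seen. Members and lists were chosen with earlier results of these data known. SDs were compared by the Pitman-Morgan test and strain order by Pearson's r, both over strains paired across diets, with Benjamini-Hochberg adjustment over all probesets, and permutation tests used 100000 draws. Genes in 2 clusters (a normal mixture with a gain in BIC of at least 10 and Ashman's D above 2) were given no pooled r of their own. They stayed in the counts of genes that passed. Groups came from average linkage on 1 minus r, cut at 0.4. The tests were tested on simulated data. Tests were run in scipy 1.17.1 and numpy 2.4.6, mixtures were fitted in scikit-learn 1.9.0, and tables and figures were made in pandas 2.3.3 and matplotlib 3.10.9 under Python 3.11.15. Alternatives changed the batch handling, scaling, brightness limit, test, clustering and strains.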

Additional observations from a re-analysis of the deposited data

How the results depend on the processing

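The count of 9 bright genes with a changed strain SD was 6 to 12 with any 1 strain left out, 6 without BXD62, BXD69, BXD79 or BXD99 and 12 without BXD68 or BXD83. It was 7 to 11 with batch means removed, quantile or median scaling, no brightness limit, or without BXD63 or the parents. It was 0 in batch 1 alone, 1 (Elovl6) in batch 2 alone, 0 with ranks in the Pitman-Morgan test, and 1 (Tmem45b) when the farthest strain of each probeset was dropped. The strain pairs the diets. With no replicate block the count was 0 on the same 74 arrays and with all 42 chow arrays, in a Brown-Forsythe test that also takes deviations from the median, so the part of the pairing alone was not tested. At an unadjusted p of 0.05 the paired test gave 1041 larger and 186 smaller. Chosen after seeing the data, leaving out BXD79 and BXD69 gave 5 and leaving out BXD56 and BXD79 gave 2 (Slc7a5 and Tmem45b). In batch 1 alone, where BXD56 is absent, the log2 SD ratio of Elovl6 was 0.72 (adjusted p = 0.922) and that of Acly 0.081 (adjusted p = 0.994), both opposite in sign.

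Of the 25 most variable genes, 14 remained when ranked by the median absolute deviation, 14 with a brightness limit of 9, and 19 to 25 otherwise. Without BXD63 the mean of H2-Ea-ps was 7.96, under the brightness limit, and its SD still 1.82. The 7 groups became 14 with 400 genes and 4 with a cut at 0.3, and 5 to 10 otherwise. In batch 2 alone most members stayed together in 2 of the 7. The median r of the Ankrd2 group was 0.588 by Spearman's rank correlation, and that of the Rny1 group 0.457 in batch 2 alone. Correlations between diets passed for 2344 bright genes, and for 639 when restricted to the 12 strains of batch 1 on both diets, 703 for the 17 of batch 2 and 1 for the 8 split between batches, fits with fewer strains, and for 2121 to 2936 otherwise.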
